A study of Mus musculus with 8 samples.

Results

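Stalk mesenchyme kept for 12 h in control growth medium on tissue culture plastic was compared with stalk mesenchyme lysed straight after dissection. Stalk mesenchyme is the connective tissue around the embryonic airway behind the growing branch tips. The comparison rests on 4 of the 8 arrays of the series, 2 per group, chosen by their labels. The labels of the culture arrays give the tissue as lung mesenchyme and name the stalk in the source name. All tissue came from lungs of CD1 mouse embryos at stages e11.5 to e12.5, an outbred strain, and no group carries an added allele or transgene in the labels. The control-cultured group received no Wnt1. The other 4 arrays, of uncultured tip mesenchyme and of stalk cultured for 12 h with 400 ng/ml Wnt1, enter below only where named. The labels do not say how many embryos were pooled for an array, whether the 2 arrays of a group came from separate litters, or what the growth medium held. P-values therefore measure the spread between these arrays only, which may be technical. Of 10 genes that mark lung mesenchyme, 9 exceeded the highest of the 4 array medians on both stalk arrays and 8 on both culture arrays. The exceptions were Twist1 in both groups and Prrx1 on 1 culture array.

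In the embryonic lung, the epithelium of the stalk sends Sonic hedgehog to the mesenchyme around it, where the receptor Ptch1 and the factor Gli1 rise as targets of the signal, and part of this mesenchyme turns into the airway smooth muscle that wraps the bronchi. Wnt, Fgf, Bmp and Tgf-beta ligands pass between the mesenchyme, the epithelium and the mesothelium, the outer lining of the lung. Mesenchyme explanted onto a stiff surface loses its contact with epithelium and with blood flow and meets a new surface and medium. Actin-rich cells on stiff plastic are known for nuclear Yap and for serum response factor held active by its actin-sensitive partners, which raise contractile and adhesion genes.

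The 2 groups differed in technical measures as well as in treatment. Each value is a MAS5 signal, the brightness of a probe set on a linear scale with a trimmed mean of 500 on every array. The median signal was 95.2 and 76.2 on the stalk arrays and 298.2 and 208.6 on the culture arrays. The 100 brightest probe sets took 10.6% and 7.57% of the summed signal in stalk and 28.9% and 18.96% in culture. For Actb, the signal at the 3' end over that at the 5' end, which rises with degraded RNA or short labelled copies, was 4.52 and 2.02 in stalk and 23.3 and 24.4 in culture. The hybridisation controls, bacterial transcripts added to each array's mix, were at 1.42 and 0.705 times their geometric mean in stalk on the stalk arrays and at 14.75 and 4.72 times it on the culture arrays. Across genes, which are not independent replicates, replicate arrays correlated at 0.974 in stalk and 0.843 in culture (Pearson), and arrays of different groups at 0.660 to 0.832. These measures moved with the group on all 4 arrays, so they and culture cannot be told apart.

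Of 14194 genes tested with limma, 3712 (26.2%) were higher in culture and 1604 (11.3%) lower at a Benjamini-Hochberg adjusted p under 0.05. Fold changes here are differences of log2(signal + 44.3), culture minus stalk, given with their SE (n = 2 arrays per group). This scale understates the change of dim genes. The median of all genes was 0.28, so the median gene was higher in culture. The shift depended on brightness. In the dimmest 25% of genes the median was 1.65, 60.3% were called higher and 2.42% lower, while in the brightest 25% it was -0.42 with 5.41% called higher and 23.1% lower. The filter on low values, which asks for a signal above 100.2 on 2 of the 4 arrays, bears on the higher calls. Both stalk arrays were at or under 100.2 for 2977 of the genes tested, so that these passed only through the culture arrays and could hardly be lower, and 2474 of them were called higher. Of the other 11217 genes, 1238 (11%) were higher. Both culture arrays were at or under 100.2 for 158 genes, which passed only through stalk, and 109 of these were called lower. The same limit holds for each gene named below whose signals in 1 group are both that low. List counts below stand against 26.2% higher and 11.3% lower of all genes. Quantile normalization, which gives all arrays 1 distribution, gave 240 genes (1.69%) higher and 285 (2.01%) lower. Cyclic loess, which removes a shift with brightness, gave 743 (5.23%) and 852 (6%). The median of the dimmest 25% was 0.46 after quantile normalization and 0.02 after loess, and that of the brightest 25% was -0.12 and -0.03. Without stalk replicate 1 the counts were 623 (4.39%) higher and 258 (1.82%) lower, and without stalk replicate 2 they were 253 (1.78%) and 102 (0.719%). Without culture replicate 1 they were 4715 (33.2%) and 2469 (17.4%), and without culture replicate 2 they were 5290 (37.3%) and 3681 (25.9%). The arrays of the 2 groups did not overlap for 10419 genes (73.4%), in either direction, so that separation alone was common. In bulk tissue, fewer cells of a type and less RNA per cell cannot be told apart.

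**Figure D1:**
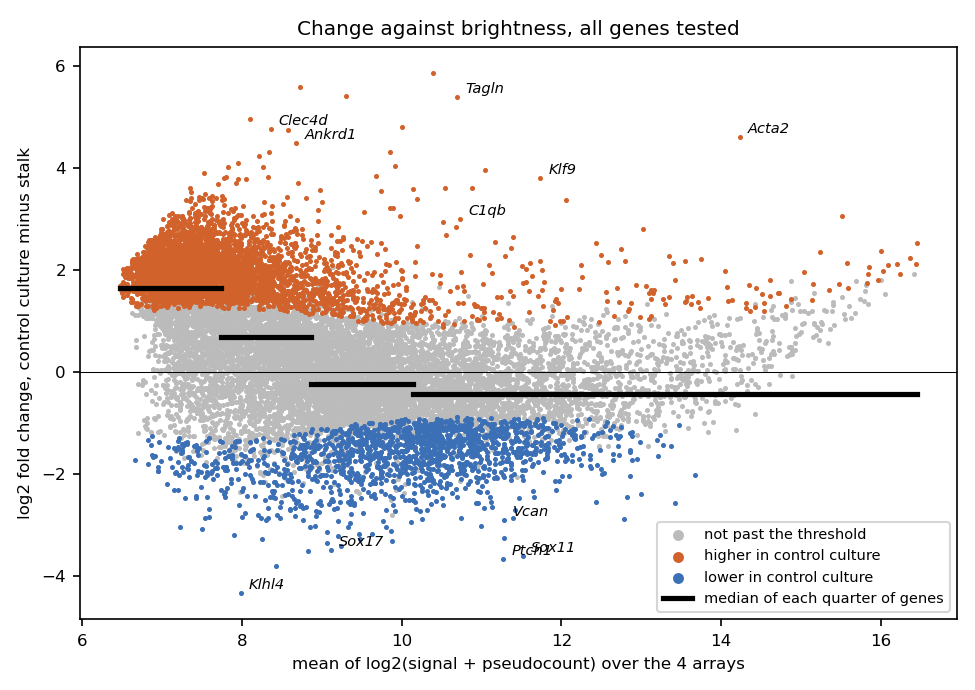
Change against brightness for the 14194 genes tested: the x axis is the mean of log2(signal + pseudocount) over the 4 arrays, the y axis the log2 fold change, control culture minus stalk, and each point a gene. Black bars are the medians of 4 groups of genes of equal size by brightness and fall from 1.65 for the dimmest to -0.42 for the brightest, while Acta2, Klf9 and Ptch1 lie far from the bulk of genes of like brightness.

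The largest named rises included genes of the actin cytoskeleton and of phagocytes. These 15 rises, and the 15 falls below, were picked by size among called genes whose arrays do not overlap between the groups. Their separation and its large size are therefore both given by the selection, and the values are a description. Tagln, an actin-binding protein of smooth muscle, had signals of 189 and 232 on the stalk arrays and 12299.6 and 9306 on the culture arrays, a log2 fold change of 5.40 ± 0.31 (limma adjusted p = 0.0031). Acta2, the smooth muscle actin, had 3321 and 4457 in stalk and 101822 and 89032 in culture (4.61 ± 0.40, adjusted p = 0.006), with 2.52 at its other probe set. Both culture arrays were far above both stalk arrays for both genes, as the plot of the largest changes shows. Lmna, a protein of the nuclear lamina, had 153 and 147 and then 4128 and 7039 (4.81 ± 0.36), and its 3 other probe sets also had positive changes of 1.19 to 2.66. Clec4d, a C-type lectin receptor of myeloid cells, had 25.3 and 12.2 in stalk and 1539.5 and 1809 in culture (4.77 ± 0.41), and Lgals3, the galectin made in quantity by activated macrophages, had 72 and 1.84 in stalk and 1612 and 2313 in culture (4.75 ± 0.53). The culture arrays also stood apart for Ankrd1, S100a6, Gpnmb, Saa3 and Actg2, with changes of 4.50, 4.33, 4.32, 4.02 and 3.97. For 4 of the 15 named genes that rose another probe set of the gene had the opposite sign, namely Bzw2 (5.87, the largest change, against -1.13), Tbc1d9b (5.60 against -0.54), Acer2 (4.24 against -0.16) and Ntmt1 (4.05 against -1.07). The remaining one, Wbp2nl, changed by 4.10 ± 0.47.

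The largest named falls joined embryonic transcription factors, the hedgehog receptor and endothelial genes. Klhl4, a member of the kelch-like family, had signals of 863 and 1375 in stalk and 5.29 and 19.9 in culture (-4.33 ± 0.46, limma adjusted p = 0.01), though its other probe set had 1.70. Sox11, a SoxC factor of embryonic progenitor cells, had 9695 and 10663 in stalk and 550.2 and 1129 in culture (-3.61 ± 0.38), and its 5 other probe sets lay between -4.03 and -1.29. Ptch1 had 7723 and 9949 in stalk and 390.4 and 1063 in culture (-3.67 ± 0.46), with 0.24 at its other probe set. For each of these genes the lower stalk array was several times the higher culture array. Sox17 and Sox18, endothelial Sox factors, changed by -3.49 ± 0.37 and -3.27 ± 0.48, and Aplnr, the apelin receptor of vessels, by -3.24 with 0.23 at its other probe set. Irs1, the adaptor of insulin and Igf receptors, had 2509.7 and 1853 in stalk and 67.2 and 427 in culture (-3.26 ± 0.64). Hsd11b2, the enzyme that inactivates corticosterone, had 1818 and 1221 in stalk and 84.3 and 96.7 in culture (-3.51 ± 0.40). Hemgn, a nuclear protein of erythroid cells, changed by -3.79, Cenpi, a centromere protein, by -3.19, and Tmem204 by -3.34. Tnpo1, Mycn, Brox and Acap2 changed by -3.41 to -3.18, but every other probe set of each had a positive change. All 30 named genes of largest change also passed with any 1 of the 4 arrays left out. Quantile normalization ended the calls of Mycn, Irs1, Brox and Acap2, loess that of Mycn, and the mean of probe sets those of Tnpo1, Mycn, Brox and Acap2. Of the 151 named genes past the threshold, 31 had another probe set of the opposite sign.

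**Figure D2:**
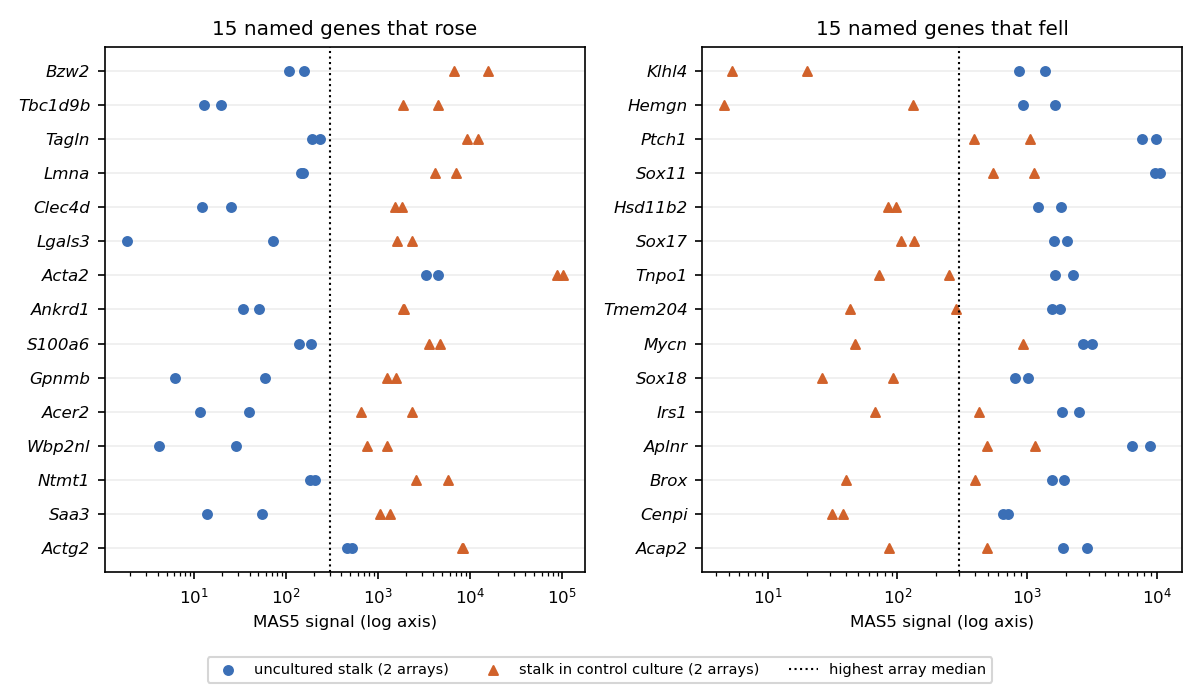
MAS5 signal (log axis) of the 15 named genes that rose most and the 15 that fell most, with 1 row per gene, circles for the 2 uncultured stalk arrays and triangles for the 2 control culture arrays. The dotted line is the highest array median, 298.2. The genes were picked among those whose arrays do not overlap, so that the groups are apart in every row by selection. For most of the rises the stalk arrays lie below that line.

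Most contractile genes of smooth muscle rose. Of 19 listed, 18 passed the filter on low values, and 12 of these were higher and 0 lower (26.2% and 11.3% of all genes). The median was 2.06, against 0.28 for all genes, and 1.94 after quantile normalization. Quantile and loess normalization gave 7 and 9 calls, and leaving out stalk replicate 1 or 2 gave 9 and 6. Of the 15 members that did not pass the filter through culture alone, 9 were higher. Besides Tagln and Acta2, Actg2, the enteric smooth muscle actin, had 456 and 525 in stalk and 8366 and 8270.0 in culture (3.97 ± 0.29). Cnn1, the calponin of differentiated smooth muscle, had 105 and 136 in stalk and 1778 and 1186 in culture (3.19 ± 0.40), and Tpm2, a tropomyosin, had 2834 and 3380.1 in stalk and 17370.0 and 27642 in culture (2.81 ± 0.37). For these 3 genes the culture arrays were far above both stalk arrays. Myh11, the smooth muscle myosin heavy chain, went from 16.2 and 21.7 to 678 and 239 (2.84 ± 0.54), and the myosin light chain Myl9 from 1509 and 1859 to 9464 and 4973 (2.01 ± 0.38). Some members did not pass. Myocd, the co-activator of serum response factor that drives this program, had 549 and 641 in stalk and 449 and 419.6 in culture (-0.41 ± 0.36, adjusted p = 0.39), and Mylk, Flna and Cald1 had changes of -0.39, -0.12 and -1.04 that did not pass.

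Serum response factor binds CArG boxes, and the promoters of 3 contractile genes that rose are shown for theirs. They are the 250 bases before the transcription start from RefSeq (assembly GRCm38.p6), 5′ to 3′ on the gene's strand in lower case, with each box in capitals. The genes are Acta2 at chr19:34255374-34255623 on the minus strand, Myl6 at chr10:128493010-128493259 on the minus strand and Myl9 at chr2:156775214-156775463 on the plus strand.
Acta2: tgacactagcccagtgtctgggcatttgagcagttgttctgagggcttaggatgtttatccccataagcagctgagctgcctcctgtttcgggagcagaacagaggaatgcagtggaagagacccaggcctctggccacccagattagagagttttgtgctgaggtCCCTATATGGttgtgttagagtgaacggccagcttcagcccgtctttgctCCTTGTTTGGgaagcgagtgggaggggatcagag
Myl6: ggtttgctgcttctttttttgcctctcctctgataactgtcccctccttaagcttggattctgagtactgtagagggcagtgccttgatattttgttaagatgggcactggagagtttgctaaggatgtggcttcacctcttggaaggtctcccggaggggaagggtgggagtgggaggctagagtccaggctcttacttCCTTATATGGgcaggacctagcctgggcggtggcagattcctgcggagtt
Myl9: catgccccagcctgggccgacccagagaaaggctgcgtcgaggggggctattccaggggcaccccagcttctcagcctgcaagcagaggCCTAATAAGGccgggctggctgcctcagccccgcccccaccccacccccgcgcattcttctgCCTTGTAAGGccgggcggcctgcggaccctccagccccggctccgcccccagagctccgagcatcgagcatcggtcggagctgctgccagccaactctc
The boxes begin 84 and 34 bases before the start in Acta2, 50 in Myl6 and 161 and 99 in Myl9. The box was searched on both strands as CC, a middle of A and T only, then GG, and in a relaxed form with at most 1 C or G in the middle. Of all 27025 genes with such a window, 1.62% hold the strict box in any of their windows and 9.78% the relaxed one. Of the 15 listed contractile genes with a window, 2 hold the strict box and 3 a relaxed one, and the latter are the 3 shown. Of 12 Yap and serum response targets with a window, 3 hold the strict box (25%). Myl6, a light chain of non-muscle and smooth muscle myosin, had 246 and 258 in stalk and 923 and 817 in culture (1.62 ± 0.36). A match is a description of letters, not a binding site.

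Single targets of Yap and serum response factor changed, and their count was near that of all genes. Of 16 tested, 5 were higher and 1 lower, against 26.2% and 11.3% of all genes, with a median of 0.67, and 2 higher and 1 lower passed after quantile normalization. Without either stalk array there were 3 higher and 1 lower. Ankrd1, a Yap target of stretched muscle, had 34 and 50.6 in stalk and 1921 and 1883 in culture (4.50 ± 0.39). Ccn2, a secreted matrix-associated protein, had 691 and 2333 in stalk and 9281 and 20169 in culture (3.38 ± 0.60). Ccn1, its relative, was at 347 and 6671 in stalk and 3659.9 and 4553 in culture, so that stalk replicate 2 already lay above both culture arrays, and did not pass (1.35 ± 1.09). The junction protein Ajuba fell, from 2654 and 2641 to 336 and 551 (-2.50 ± 0.34). Srf and Vcl had -0.32 and -0.54 and did not pass. Among 20 genes of actin filaments and focal adhesions, 5 were higher and 0 lower, a share near the background of 26.2%. They included the annexin Anxa1, which had 155 and 189 in stalk and 2833 and 3321 in culture (3.85 ± 0.33), and the actin-capping protein Capg, at 248 and 248 in stalk and 1487 and 1499 in culture (2.40 ± 0.34). Both passed with any 1 array left out, whereas Vim, Tmsb10 and Cnn2 (1.21 to 1.73, with 1 probe set of Vim opposite in sign) passed in 2 of the 4 fits with 1 array left out.

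Immediate early and heat shock genes differed between the stalk replicates. Fos had 247 and 7194 on stalk replicates 1 and 2 and 4511 and 812 in culture, and Hspa1a, the inducible Hsp70, had 498 and 14845 in stalk and 762 and 1042 in culture. Stalk replicate 2 was the highest of the 4 arrays for both, and neither passed. Of 19 immediate early genes, 1 was higher, Jund (0.99 ± 0.31), and 2 were lower, Myc (-1.90 ± 0.33) and Klf2 (-1.35 ± 0.43), the flow-induced factor of endothelium. Of 16 heat shock genes tested from 18 listed, 3 were higher and 2 lower, and the list's median of -0.42 turned to 0.60 without stalk replicate 2 and to 0.09 without culture replicate 1. The small heat shock proteins Cryab and Hspb1 rose. Cryab, a chaperone of desmin and actin, had 278 and 285 in stalk and 3296 and 4580.3 in culture (3.59 ± 0.32), and Hspb1, which protects actin filaments, had 387 and 826 in stalk and 5252 and 3579 in culture (2.84 ± 0.41). Dnaja1, a co-chaperone of Hsp70, went the other way (-1.22 ± 0.37).

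In the lists of stress pathways few genes passed, some with large changes, and the counts were near or under the 26.2% higher and 11.3% lower of all genes. Of 20 genes listed for the hypoxia response, 4 were higher and 1 lower, and none passed after quantile normalization. Adm, the vasoactive peptide adrenomedullin, rose from 147 and 204 to 766 and 2415 (2.70 ± 0.55). The other 3 were the carbonic anhydrase Car9 (1.90), Vegfa (1.48, with its other probe set opposite in sign) and the mitochondrial protein Higd1a (1.15). The histone demethylase Kdm3a fell (-1.73 ± 0.35). Of 13 glycolysis genes tested, 3 were higher, all below the highest array median in stalk, namely Eno2, Aldoc and the lactate transporter Slc16a3 (1.51 to 1.96), while Ldha and Pgk1 had -0.58 and 0.44 and did not pass. Of 14 p53 targets tested, 4 were higher, also near the share of all genes. Cdkn1a, the inhibitor of cyclin-dependent kinases, had 236 and 301 in stalk and 1508 and 5369.5 in culture (3.22 ± 0.56), followed by Perp, Phlda3 and Mdm2 at 2.49, 1.60 and 1.55, with 1 probe set of Mdm2 opposite in sign. Of 20 genes of the unfolded protein and amino acid responses, 4 were higher and 1 lower. Chac1, a glutathione-degrading enzyme of the Atf4 response, had 88.9 and 92.3 in stalk and 959.5 and 1211 in culture (3.06 ± 0.39), Slc7a11, the cystine transporter, changed by 2.66 and Trib3 by 1.99, whereas the chaperone Hspa5 of the endoplasmic reticulum had -0.45 and did not pass.

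Metal, oxidative and steroid responses were mixed. Of 15 tested oxidative stress and metallothionein genes, 5 were higher and 1 lower, and the median of 0.42 became -0.08 after quantile normalization. The metallothioneins Mt1 and Mt2 changed by 2.11 ± 0.42 and 1.33 ± 0.41, with Mt1 at 586 and 262 in stalk and 1597 and 2144 in culture. Txnrd1, a thioredoxin reductase, fell (-1.67 ± 0.41) although both of its other probe sets had positive changes. Of 11 glucocorticoid-response genes, 3 were higher and 2 lower. Klf9, a Krüppel-like factor induced by glucocorticoids and thyroid hormone, had 776 and 967 in stalk and 11618 and 13967 in culture (3.81 ± 0.30, adjusted p = 0.0056), and none of its 3 other probe sets had the opposite sign. Tsc22d3, another glucocorticoid target, also rose (1.68 ± 0.38), but 1 of its 3 other probe sets had -1.07, and it did not pass after quantile normalization or with the mean of probe sets (0.92). Fkbp5, which the same hormone raises, was lower (-1.39 ± 0.39), though its other probe set was opposite, and so was Hsd11b2. Of 16 cholesterol genes tested from 20 listed, 1 was higher, Sc5d (1.15), and 2 were lower, Stard4 (-1.34) and Msmo1 (-1.41, with a probe set of the opposite sign).

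Genes of mitosis and cytokinesis were lower. Of 21 genes of mitosis and cytokinesis, 0 were higher and 13 lower, against 11.3% of all genes, with a median of -1.35 and of -1.05 after quantile normalization, which gave 5 lower calls. Loess gave 6, and without stalk replicate 1 or 2 there were 3 and 2. Kif20a, a kinesin of cytokinesis, had 1967 and 2564 in stalk and 219.8 and 419.7 in culture (-2.71 ± 0.39), and Aurkb, the kinase of the chromosomal passenger complex, had 2336 and 3371 in stalk and 483 and 565 in culture (-2.33 ± 0.33). Bub1, a spindle checkpoint kinase, had 3853 and 4014 in stalk and 809 and 1034 in culture (-2.05 ± 0.30, with its other probe set opposite in sign). Culture was below stalk on both arrays for each, while 73.4% of all genes had no overlap between the groups in either direction. Mki67, the proliferation antigen, had 6997 and 6793 in stalk and 1481 and 4944 in culture, with culture replicate 2 nearer to stalk, and did not pass (-1.33 ± 0.53, adjusted p = 0.08). Of 20 S-phase genes, 4 were lower, Mcm3, Tk1, Cdc6 and Pcna (-1.71 to -1.52, with 2 of the other probe sets of Mcm3 opposite in sign), and 19 of the 20 had a negative change. Of 19 Myc and G1 genes, 6 were lower and 1 higher. The lower ones included the D-type cyclins Ccnd1 (-1.50 ± 0.31) and Ccnd2 (-1.99 ± 0.30, with 1 of its 6 other probe sets opposite in sign), which drive entry into the cycle. The higher one was Cdkn2b, an inhibitor of Cdk4 and Cdk6, at 47 and 6.31 in stalk and 369.6 and 482 in culture (2.78 ± 0.48).

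Growth factor and biosynthesis genes had no common direction. Of 15 Igf genes tested, 5 were lower and 2 higher. The Igf2 mRNA-binding proteins Igf2bp1 and Igf2bp3 changed by -2.0 and -2.13, and the clearance receptor Igf2r by -1.70 ± 0.31, with none of their other probe sets opposite in sign. Igfbp7, a secreted binding protein, rose from 145 and 232 to 1115 and 996 (2.26 ± 0.39), while the growth factor Igf2 itself had -0.11 ± 0.35 and did not pass. Of 20 subunits of the mitochondrial respiratory chain, 4 were lower, led by Ndufs1 of complex I (-2.25 ± 0.39), and 1 was higher, Cox6c (1.65), whose other probe set was negative. Their median was -0.05, with 10 changes above 0 and 10 below. Of 14 cytosolic ribosomal protein genes tested from 22 listed, 3 were higher with a median of 1.39, but the median was 0.24 after quantile normalization and no gene was called higher there, with loess or without either stalk array.

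Transcripts of several hedgehog pathway genes were lower. Of 12 tested, 7 were lower and 0 higher, against 11.3% and 26.2% of all genes, with a median of -1.27, and 2 passed after quantile and 4 after loess normalization. Without stalk replicate 1 or 2, 2 and 1 passed. Among the targets, Ptch1 is described above. Hhip, the secreted hedgehog trap, had 391 and 564 in stalk and 41.5 and 16.6 in culture (-2.83 ± 0.45). It passed the filter only through stalk, which favoured a lower call. With low values raised to the highest array median Hhip had -0.59 and did not pass. Gli1 had 596 and 933 in stalk and 258 and 66.7 in culture (-2.11 ± 0.56). All 3 targets were lower on each culture array than on either stalk array, while 73.4% of all genes had no overlap in either direction. The transducer Smo changed by -1.54 ± 0.34, and the factors Gli2 and Gli3 by -1.52 ± 0.47 and -1.42 ± 0.29. Foxf1, a mesenchymal forkhead factor that depends on the signal, had 1441 and 1678 in stalk and 784 and 603 in culture (-1.13 ± 0.32). The co-receptors Gas1, Cdon and Boc had -0.34, -0.20 and 0.39 and did not pass. Shh, the epithelial ligand, was at 151 and 66.1 in stalk and 50.2 and 187 in culture, below the highest array median on all 4.

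Wnt targets were lower in part. Of 16 tested, 5 were lower and 1 higher, with a median of -0.41, and 1 was lower without either stalk array. Tnfrsf19, a Tnf-receptor family member, had 2736 and 2665 in stalk and 236 and 317 in culture (-3.11 ± 0.33), though its other probe set was opposite in sign. Axin2, the feedback inhibitor most used as a Wnt readout, had 749.9 and 821 in stalk and 242 and 277 in culture (-1.45 ± 0.37, adjusted p = 0.023), and the nuclear partner Lef1 had 1935 and 1789 in stalk and 885 and 602 in culture (-1.30 ± 0.33, with 0.05 at its other probe set). Axin2 did not pass without either stalk array, and Lef1 passed in 2 of the 4 fits with 1 array left out. The stem cell receptor Lgr5 was the one that rose, from 41 and 3.23 to 530.2 and 293 (2.79 ± 0.51). It passed the filter only through culture, and it did not pass after quantile normalization or loess. Of 23 ligands, receptors and antagonists tested, 6 were higher and 5 lower. Wnt2, the main canonical ligand of early lung mesenchyme, fell from 3136 and 4018 to 1048 and 277 (-2.60 ± 0.55), while Wnt4 rose from 12.2 and 15.3 to 935 and 642 (3.82 ± 0.44). The 2 ligands thus moved in opposite directions, with -3.49 to -1.72 for Wnt2 and 3.56 to 4.07 for Wnt4 when 1 array was left out. Wnt4 was at or under 100.2 on both stalk arrays and passed the filter only through culture, which favoured a higher call. With low values raised to the highest array median Wnt4 had 1.26 and did not pass. Wnt2 did not pass after quantile normalization (limma adjusted p = 0.1) or loess (0.073), where the list of ligands, receptors and antagonists gave 1 higher and 0 lower calls by the first and 3 and 1 by the second. The other ligands that rose were Wnt5a (1.93), Wnt5b (1.45, with -0.77 at its other probe set) and Wnt7b (1.62), with the amplifier Rspo3 (1.68). The receptors Fzd7 and Fzd1, the co-receptor Lrp6 and the amplifier Rspo2 fell (-1.77, -1.02, -1.90 and -1.56, the last with 2.0 at its other probe set), and the receptor Fzd10 rose (1.93).

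Fgf ligands and receptors that rose were dim genes. Of 20 tested, 8 were higher and 2 lower, but 0 higher calls were made after quantile normalization or loess and 0 without either stalk array. Fgf10, the mesenchymal ligand that directs branching, had 166 and 134 in stalk and 796 and 503 in culture (1.81 ± 0.43), and Fgf1, Fgf7 and Fgf18 had 2.34, 1.76 and 1.51. The receptors Fgfr3 and Fgfr4, the factor Etv4 and the binding protein Fgfbp3 were the rest, with the other probe set of Fgfr3 opposite in sign. The stalk signals of all 8 were below the highest array median. The 2 falls were in feedback genes of the pathway. Il17rd, a membrane antagonist, had 1269 and 1276 in stalk and 168 and 294 in culture (-2.30 ± 0.39), and the Erk phosphatase Dusp6 changed by -1.10 ± 0.35. The Sprouty genes Spry1, Spry2 and Spry4 (0.12 to 0.53) did not pass.

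Bmp and Tgf-beta genes moved in both directions. Of all genes 26.2% were higher and 11.3% lower, and the higher counts of both lists were near that share. Of 23 Bmp genes, 6 were higher and 4 lower, and without either stalk array 3 were higher and 1 lower. Quantile normalization gave 1 higher and 1 lower Bmp call, and loess 3 and 3. The antagonists Grem1 and Fst had 2.55 ± 0.42 and 2.27 ± 0.39, with Grem1 at 85.7 and 123 in stalk and 942 and 709 in culture. Id4, a target among the inhibitors of bHLH factors, changed by 2.17 ± 0.33, though both of its other probe sets were negative, and Id1, Id2 and Id3 (0.16 to 0.39) did not pass. The receptors Bmpr1a and Bmpr2, the transducer Smad5 and the ligand Bmp5 fell (-1.91, -1.71, -2.58 and -1.87), each with at least 1 other probe set of opposite sign, while Bmp2 rose (2.09 ± 0.53). Of 20 Tgf-beta genes, 8 were lower and 6 higher, and 1 was lower without either stalk array. Here quantile normalization gave 1 higher and 1 lower call, and loess 3 and 2. The receptors Tgfbr1, Tgfbr2 and Tgfbr3 were all lower (-1.88, -1.69 and -2.46), with Tgfbr3 at 2093 and 2286 in stalk and 353 and 368 in culture, and the other probe set of Tgfbr1 and of Tgfbr2 was opposite in sign. Lower too were the transducers Smad2 and Smad3 (-1.19 and -1.64). The Tgf-beta rises, 3 of them past the filter only through culture, were mostly in ligands and their carriers. They were Tgfb1 (2.28), the activin chains Inhba (1.41) and Inhbb (2.85), the latent-binding proteins Ltbp2 (2.54) and Ltbp3 (1.66), and the feedback gene Pmepa1 (1.13). Tgfb1 and Inhbb did not pass after quantile normalization or loess.

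Other signalling lists held single changes. Of 12 retinoic acid genes tested, 1 was lower, Rdh10, which makes retinal from retinol (-1.18 ± 0.33), and Aldh1a2, which makes the acid, had 0.02 and did not pass. Of 14 Notch genes, 4 were lower and 1 higher. Notch4 (-1.82), Hey1 (-1.57) and Notch1 (-1.53, with its other probe set opposite in sign) are known from endothelium, whose markers also fell, and the part of endothelium in these values was not tested. The fourth was Rbpj (-0.94), with both other probe sets opposite in sign. Of 25 guidance molecules, 7 were lower and 1 higher, and 3 and 2 were lower without stalk replicate 1 or 2. The ephrin receptors Epha3 and Epha7 had -2.27 ± 0.31 and -2.41 ± 0.33, with Epha7 at 2687 and 3179 in stalk and 423 and 622 in culture and none of its 3 other probe sets opposite. Sema6d changed by -2.54, with all 3 of its other probe sets opposite in sign.

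Transcription factors of lung mesenchyme were lower for several lineage regulators. Of 25 tested, 8 were lower and 2 higher, with a median of -0.43, and without stalk replicate 1 or 2 there were 1 and 0 lower. Quantile and loess normalization gave 2 and 3 lower calls. The T-box factors Tbx4 and Tbx5, which specify the lung field and its trachea and branching, had -2.19 ± 0.30 and -1.89 ± 0.42. Tbx5 did not pass after quantile normalization. Tbx4 had 3432 and 4304 in stalk and 741 and 877 in culture, so the groups were well apart. Tcf21, a bHLH factor of lung fibroblast progenitors, had 2394 and 2659 in stalk and 924 and 878 in culture (-1.44 ± 0.29), but its other probe set was opposite in sign. Tcf21 did not pass after quantile normalization or loess. Meis1, Pbx3, Osr1, Zfpm2 and Foxf1 fell less (-1.41 to -1.13), and the other probe sets of Meis1 and of Foxf1 were opposite in sign. The rises, Nkx2-3 (1.47) and Barx1 (1.61), which pattern gut mesenchyme, were in dim genes and neither passed after quantile normalization or loess. Of 13 Hox genes tested from 21 listed, 2 were higher and 2 lower. Hoxc8 had 4.43 and 2.98 in stalk and 645 and 411 in culture (3.54 ± 0.44), and its neighbour in the cluster, Hoxc6, had 10 and 53.2 in stalk and 674 and 539 in culture (3.15 ± 0.48). Both were at or under 100.2 on both stalk arrays and passed the filter only through culture, which favoured a higher call. With low values raised to the highest array median, Hoxc8 and Hoxc6 had 0.71 and 0.92 and did not pass. Of the 11 other Hox genes tested 0 were higher, and Hoxc4 had -0.01 and Hoxc5 -0.36 and did not pass. Hoxb3 and Hoxb6 fell (-2.01 and -2.05).

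The matrix genes divided between fibrous matrix, embryonic matrix and basement membrane. Of 23 collagens and elastic fibre genes, 9 were higher and 1 lower, with a median of 0.93 and of 0.98 after quantile normalization. Loess gave 7 higher calls, and without stalk replicate 1 or 2 there were 2 and 1. Col12a1, a collagen that associates with fibrils, had 3.67 and 77.4 in stalk and 508 and 643 in culture (3.01 ± 0.55), Loxl1, a cross-linking enzyme, had 310.1 and 252 in stalk and 1097 and 1519 in culture (2.04 ± 0.36), and elastin, Eln, had 220.2 and 293 in stalk and 816 and 1285 in culture (1.84 ± 0.40). The fibrillar chains Col1a2 and Col3a1, already bright in stalk, had -0.03 and 0.08 and did not pass. Emilin1 was the one that fell (-1.80 ± 0.49). Of 24 provisional matrix genes and receptors, 5 were higher and 5 lower. Tnc and Postn, tenascin C and periostin of remodelling tissue, rose by 2.63 ± 0.43 and 2.0 ± 0.38 on the log2 scale. Vcan, the large proteoglycan of embryonic mesenchyme, fell from 5885 and 7750.0 to 607 and 1236 (-2.90 ± 0.39), with 2 of its 4 other probe sets opposite, and the cell-surface proteoglycans Sdc2 and Gpc6 changed by -1.79 and -2.95. Fn1, fibronectin, had 3054 and 3163 in stalk and 1795 and 6356 in culture and did not pass.

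Of 17 basement membrane genes, 6 were lower and 0 higher, with a median of -0.61. Quantile normalization gave 3 lower calls and loess 4, and without stalk replicate 1 or 2 there were 2 and 0. Agrn, agrin, had 3222 and 3403 in stalk and 725 and 905 in culture (-1.97 ± 0.30), Frem1, a protein of the embryonic membrane zone, had 1025 and 1458 in stalk and 210.0 and 245 in culture (-2.22 ± 0.37), and the laminin chain Lama1 had 236 and 343 in stalk and 41.8 and 27.8 in culture (-2.06 ± 0.44). Lama4, Nid1 and Frem2 also fell, with changes of -1.59 to -1.50, and the other probe sets of Lama4 and Nid1 were opposite in sign. Of 15 matrix proteases and inhibitors tested from 22 listed, 4 were higher and 2 lower. Adamts20 fell from 2671 and 2267 to 292 and 535 (-2.51 ± 0.37), and Plat, the tissue plasminogen activator, changed by -1.59 ± 0.39, with 1.77 at its other probe set. The inhibitor Timp2 rose from 1771 and 1446 to 5456 and 6675 (1.89 ± 0.30), though 2 of its 4 other probe sets were opposite, and the versican-cleaving protease Adamts5 changed by 2.01 ± 0.41.

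Most endothelial markers fell, and on the MAS5 scale their list had the lowest median of the 45. Of 16 tested from 17 listed, 10 were lower and 0 higher, against 11.3% and 26.2% of all genes, and the median was -1.98 and -1.96 after quantile normalization, where the erythroid list was lower (-1.99), as it was with loess (-2.44 against -1.72). For 4 of the 10 both culture arrays were at or under 100.2, so that they passed the filter only through stalk. Quantile and loess normalization gave 7 and 10 calls, and leaving out stalk replicate 1 or 2 gave 7 and 3. Their summed signal was 15060.1 and 17692 in stalk and 5911 and 5311 in culture. Sox17 had 1611 and 2022 in stalk and 135 and 107 in culture, and Tek, the receptor of angiopoietins, had 344 and 424 in stalk and 11 and 4.61 in culture (-3.03 ± 0.42). Kdr, the main Vegf receptor, had 2479.6 and 3198 in stalk and 688 and 661 in culture (-1.99 ± 0.31), and Cldn5, the tight junction protein of vessels, 2429 and 2348 in stalk and 290.0 and 796 in culture (-2.20 ± 0.45). Kdr was thus still above the highest array median in culture while Tek was not. Cdh5, the endothelial cadherin, had 416 and 363 in stalk and 329 and 295 in culture and did not pass, and Flt1 and Robo4 had positive changes that did not pass (1.18 and 1.03). The part of this list in the falls of Aplnr and Klf2 was not tested.

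Blood markers did not move as 1 group. Of 9 erythroid genes tested, 5 were lower and 1 higher. The embryonic globin Hba-x had 22982 and 15731 in stalk and 3241 and 2032 in culture (-2.87 ± 0.38), and Alas2, the first enzyme of heme synthesis in red cells, had 755 and 783 in stalk and 253 and 254 in culture (-1.45 ± 0.36). The globin Hbb-y went the other way, from 50044 and 27707 to 327677 and 142301 (2.53 ± 0.71), with 1 of its 2 other probe sets opposite in sign and a change of 0.40 after quantile normalization that did not pass. Of 7 platelet genes, 2 were lower, Ppbp (-2.67 ± 0.44) and Itgb3 (-1.52), while the platelet factor Pf4 had 0.50 and did not pass. Of 10 pericyte genes tested, 3 were higher and 1 lower. Pdgfra, a receptor that early lung mesenchyme also makes, fell (-1.64 ± 0.38), with 0.11 at 1 of its other probe sets. It did not pass after quantile normalization, loess or with the mean of probe sets (-0.59). Its ligand Pdgfa rose (1.76 ± 0.41), and Pdgfrb and Rgs5, the pericyte markers proper, had -1.24 and -0.91 and did not pass.

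Macrophage markers were higher. Of 15 tested from 16 listed, 9 were higher and 0 lower, with a median of 1.76 and of 1.42 after quantile normalization. Quantile and loess normalization gave 5 and 6 calls, and leaving out stalk replicate 1 or 2 gave 4 and 3. Their summed signal was 5666 and 5880.4 in stalk and 16050.2 and 28634 in culture. C1qb, a chain of the first complement component, had 628 and 493 in stalk and 4304 and 5255 in culture (3.0 ± 0.31, limma adjusted p = 0.01), Lyz2, lysozyme, had 248 and 161 in stalk and 1139 and 1940.3 in culture (2.65 ± 0.41), and Adgre1, the antigen F4/80, 304 and 317 in stalk and 1241 and 3218 in culture (2.53 ± 0.47). Both culture arrays exceeded both stalk arrays for each, while 73.4% of all genes had no overlap between the groups in either direction. The growth factor receptor Csf1r had 1751 and 1978 in stalk and 4091 and 10229 in culture (1.77 ± 0.44), and its ligand Csf1 changed by 1.57 ± 0.37. The mannose receptor Mrc1, of resident macrophages, had 388 and 905 in stalk and 202 and 188 in culture and a change of -1.42 ± 0.48 that did not pass (adjusted p = 0.052).

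**Figure D3:**
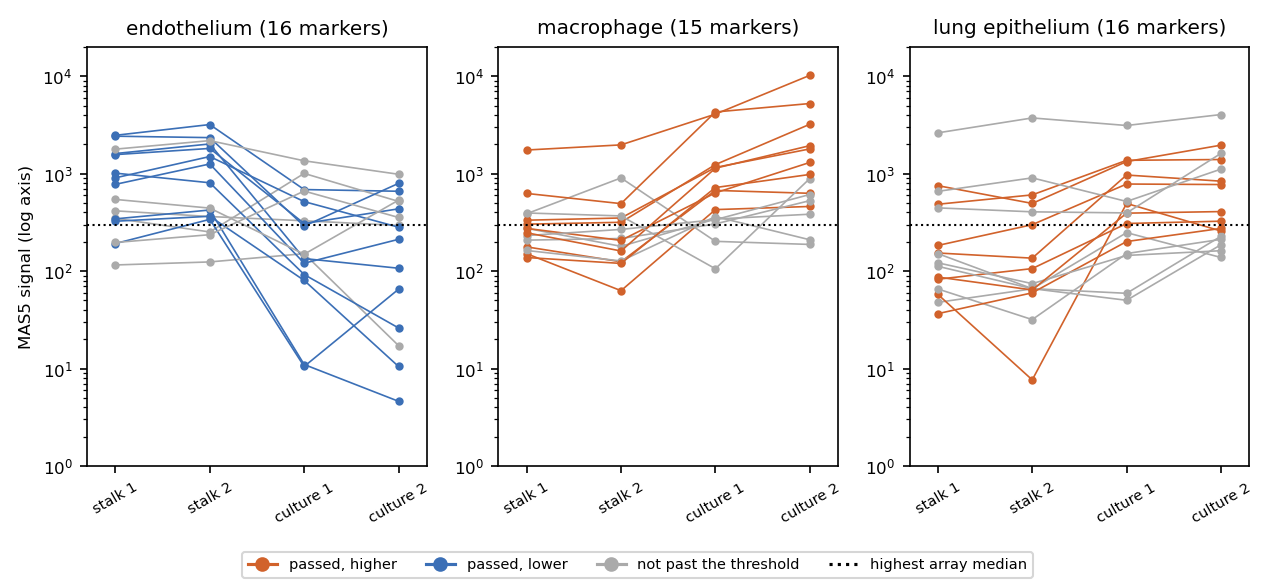
MAS5 signal (log axis) of the tested markers of endothelium, macrophages and lung epithelium on the 2 stalk and 2 control culture arrays; each line joins the 4 values of 1 gene, coloured by whether it passed higher, lower or not, and the dotted line is the highest array median. Of the 16 endothelial markers 10 fell, of the 15 macrophage markers 9 rose, and the epithelial markers that rose lie mostly near or below the dotted line in stalk.

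Genes of activated phagocytes rose beside the macrophage markers, while the calls in the inflammation lists were mostly in dim genes, and the part of those markers in these lists was not tested. Of 14 phagocyte activation genes tested, 10 were higher and 0 lower, with 4 higher after quantile and 7 after loess normalization, and 4 and 3 without stalk replicate 1 or 2. Of the 10, 6 had passed the filter only through culture. Gpnmb, a glycoprotein of lipid-laden and lysosome-rich macrophages, had 59.1 and 6.15 in stalk and 1243 and 1584 in culture (4.32 ± 0.49), and the lysosomal protease Ctsd had 1385 and 1521 in stalk and 5014 and 7338 in culture (2.03 ± 0.32). Of 20 chemokines, cytokines and acute phase genes tested from 27 listed, 13 were higher and 0 lower, against 26.2% of all genes and 60.3% of the dimmest 25% called higher. For 9 of the 13 both stalk arrays were at or under 100.2, so that the filter favoured a higher call. Of the list, 1 passed after quantile and 4 after loess normalization. That 1 was Saa3, an acute phase protein, at 13.9 and 55.3 in stalk and 1056 and 1347 in culture (4.02 ± 0.46), followed by Ccl9, a chemokine of myeloid cells, at 92 and 81.7 in stalk and 604 and 1098 in culture (2.71 ± 0.45). The others that rose lay under the highest array median in stalk, except Csf1. Of 16 interferon-response genes, 10 were higher, 6 of them past the filter only through culture, and 1 lower, with 2 and 3 higher after quantile and loess normalization and 3 and 2 without stalk replicate 1 or 2. Oas1a, which senses double-stranded RNA, had 26 and 18.1 in stalk and 859.8 and 896 in culture (3.80 ± 0.42), and Ifitm3, which blocks viral entry, had 955 and 1063 in stalk and 4039.5 and 4942 in culture (2.10 ± 0.30). Ifit2 was the one that fell (-1.43 ± 0.48).

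Markers of other neighbours of the mesenchyme were mostly dim. Of 16 lung epithelial genes tested, 8 were higher and 0 lower, against 26.2% and 11.3% of all genes, with a median of 1.29. After quantile normalization the median was 0.50 and 0 passed. Of the 16, 5 passed the filter only through culture, which favoured a higher call. Of these 5, 3 were called higher, Nkx2-1 among them. Of the other 11, 5 were higher (45.5%), against 11% of all genes that did not pass through culture alone. Epcam, an epithelial adhesion molecule, had 154 and 136 in stalk and 969.7 and 839 in culture (2.33 ± 0.38, with its other probe set opposite), and Krt8 and Krt18, keratins of simple epithelium and mesothelium, had 1.28 and 1.34. Nkx2-1, the defining factor of lung epithelium, had 57.7 and 7.65 in stalk and 495 and 258 in culture and passed (2.47 ± 0.53), but not after quantile normalization or loess or without stalk replicate 2. Cdh1, the epithelial cadherin, had 1.20 and did not pass. Of 10 mesothelial genes, 4 were higher, among them Upk1b (1.74 ± 0.39), while Wt1 and Upk3b had 0.54 and 0.57 and did not pass. Of 9 neural crest and neuron genes tested from 15 listed, 3 were higher and 1 lower, and the median of 1.32 was -0.03 after quantile normalization. Of 9 cartilage genes, 3 were higher, Matn1, Acan and Cnmd (2.09 to 2.27), with stalk signals of at most 56.0, so that they passed the filter only through culture, and Matn1 and Cnmd had means under the highest array median in both groups, while Sox9 and Col2a1 had 0.42 and 0.52 and did not pass.

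**Figure D4:**
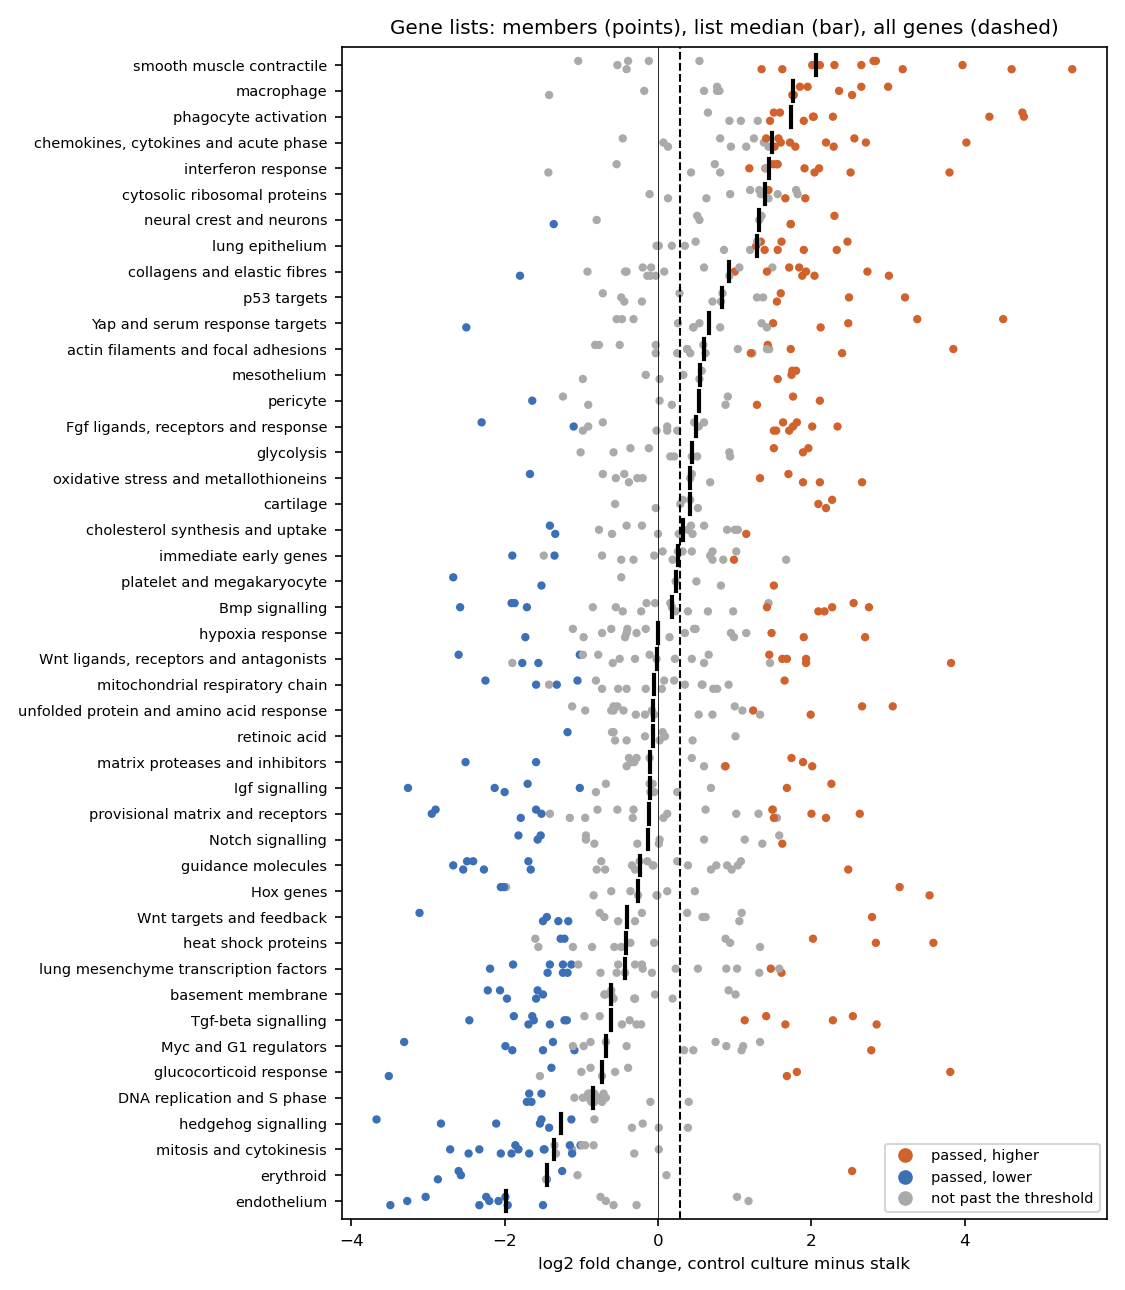
The 45 gene lists ordered by their median log2 fold change, control culture minus stalk: points are tested members, coloured where they passed higher or lower, black bars are list medians and the dashed line is the median of all genes, 0.28. The smooth muscle list has the highest median, 2.06, and the endothelial list the lowest, -1.98, a place the erythroid list takes after quantile normalization or loess.

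A second comparison of cultured with uncultured tissue, on arrays of its own, was set beside this one. Stalk cultured for 12 h with Wnt1 was compared with uncultured tip. It shares no array with the comparison above, but differs from it by Wnt1 and by region, and its culture arrays had high medians too (295.3 and 149.0, against 99.4 and 86.1 in tip). Their Actb 3' to 5' ratios were 21.2 and 6.81, against 3.65 and 3.84 in tip. Their hybridisation controls were at 10.8 and 3.80 times the mean in stalk, against 1.51 and 1.45 in tip. Culture and these technical measures thus moved together in both comparisons, so a shared direction cannot be assigned to either. There 535 genes (3.77%) were higher and 748 (5.27%) lower by limma. Of the 3712 genes higher in control culture, 3604 (97.1%) had the same direction and 453 passed, and of the 1604 lower, 1570 (97.9%) had the same direction and 577 passed, while 56.2% of all genes had a positive change. Among the 3712, 2474 had passed the filter only through control culture. Of the 151 named genes past the threshold, 150 had the same direction and 86 passed. The exception was Klf2 (-1.35 against 1.14). Tagln and Acta2 had changes of 7.10 and 6.13 there, C1qb 3.18 and Ptch1 -3.39. Several differed in size between the comparisons. Tek had -0.43 against -3.03 here, Adamts20 -4.65 against -2.51, Saa3 1.90 against 4.02, and Actg2 6.03 against 3.97, and these differences were not tested. Myocd, which did not pass here, had 0.92 there against -0.41.

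**Figure D5:**
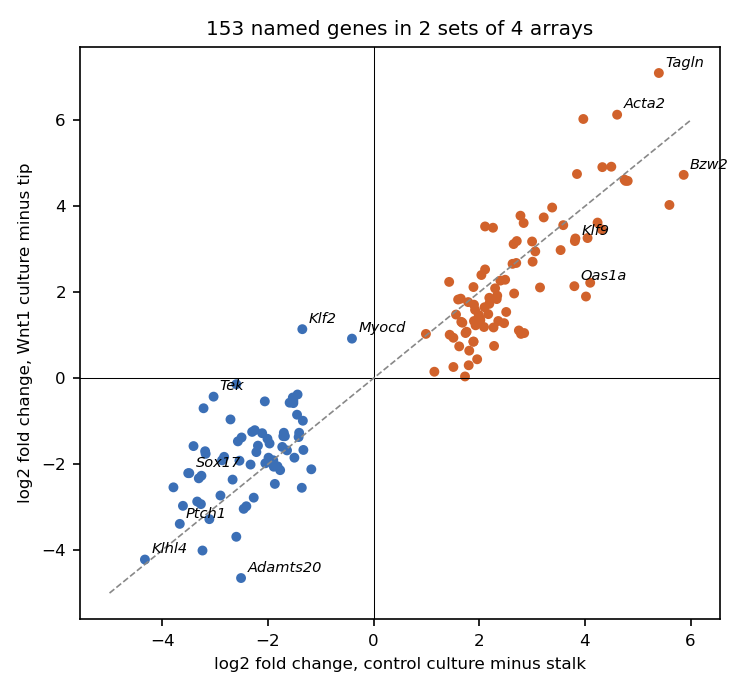
Log2 fold changes of the 153 named genes in control culture minus stalk (x axis) and in Wnt1 culture minus tip (y axis), which use 2 separate sets of 4 arrays; each point is a gene, coloured by its direction on the x axis, and the dashed line marks equal change. Points share their sign on both axes except Klf2 and Myocd, with Tagln and Acta2 above the line and Adamts20 below it.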

How the data were processed

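RNA of 4 samples was measured on a mouse array of 45101 probe sets after 2 cycles of cDNA amplification, per the labels' protocols. The deposited values are linear intensities, made by the authors with MAS5 in Affymetrix Expression Console, per the submitters' processing notes. Control probe sets (64) were left out. Of the rest, 34945 had 1 gene symbol, 932 several and 9160 none in the platform annotation, and those with 1 were used. Probe sets above 100.2 (the 40th percentile) on at least 2 of the 4 arrays entered, and the one with the highest mean stood for its gene. Values were log2(signal + 44.3), 44.3 being the 25th percentile, and were fitted with lmFit and eBayes (trend) in limma 3.58.1 (R 4.3.3) with Benjamini-Hochberg adjustment at 0.05, on these 4 arrays only. On simulated data with few changed genes the mean fold changes given were recovered, but no changed gene passed the threshold. The arrays' number limits the precision.

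Alternatives covered the pseudocount, filter, normalization, probe set choice, variance model, block and each array left out, and 2 were chosen after seeing the data. Genes were named as the 15 largest called changes in each direction, the called members of each list with the smallest p and a few set genes, which gave 153. The 15 were limited to genes whose arrays do not overlap between groups. The mean of their brighter group had to exceed the highest array median, and predicted and clone-named genes were left out. List members named beside them were chosen after their values were seen. The members and lists were chosen with earlier results of these data known. Promoters came from RefSeq (GRCm38.p6).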

Additional observations from a re-analysis of the deposited data

How the results depend on the processing

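Of the 153 named genes, 145 kept their direction in each alternative that tested them, while the medians of 27 of the 45 lists kept their sign. Of the named genes, 76 of those called also passed after quantile normalization and 106 after cyclic loess. With limma throughout, the main counts of 3712 genes higher in control culture than in stalk and 1604 genes lower in control culture than in stalk became 2354 higher with no filter and 1681 higher with a filter at the highest array median. Quantile normalization gave 240 higher and 285 lower, cyclic loess 743 and 852, and an adjusted p under 0.01 gave 15 and 0. Raising all values below the highest array median to it gave 0 and 0, with 3265 genes at an unadjusted p under 0.05, and 245 and 345 when only genes above it on 2 arrays were fitted, all at 1 adjusted p of 0.049991. With 1 array left out there were 253 to 5290 higher and 102 to 3681 lower calls. The lowest counts came without stalk replicate 2 (253 and 102), then without stalk replicate 1 (623 and 258), and the highest without culture replicate 2 (5290 and 3681), then culture replicate 1 (4715 and 2469). There the lone array of a group is assumed to vary like the other group. The groups share replicate numbers that no label pairs. With the replicate block the counts were 4356 and 2152, and the deviations of same-numbered arrays correlated at 0.156 over 2 pairs only. Some named changes reversed. Without suffixed probe sets Bzw2 had -1.13, Tbc1d9b -0.54, Aplnr 0.23, Msmo1 1.09 and Cox6c -0.37. With the mean of probe sets Sema6d had 0.34 and Tcf21 0.12, and with loess Sox10 had -0.21. The cause was not tested. Median centring moved the share of higher calls from 69.8% to 59.1%, quantile normalization to 45.7% and loess to 46.6%. Signals near the array medians limit the folds of dim genes.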
